A study of Mus musculus with 12 samples.

Results

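The 39 genes described here are antiviral interferon-stimulated genes, taken by symbol from the deposited count matrix of bone marrow-derived macrophages (BMDMs). They make up 39 of the 43131 genes in the matrix, and each was read from its transcript row with the highest total count. By role they fall into 9 sensors of viral nucleic acid and their ligase (Ifih1, Ddx58, Dhx58, Ddx60, Znfx1, Zbp1, Ifi203, Ifi204, Trim25), 15 effectors (Mx1, Mx2, Eif2ak2, Isg20, Bst2, Ifitm3, Samhd1, Rtp4, Ifi44, Ifi35, Xaf1, Tdrd7, Trim21, Helz2, Tor3a), 2 genes of nuclear bodies (Sp100, Pml), 5 genes of ADP-ribosylation (Parp9, Parp10, Parp12, Parp14, Dtx3l), 6 genes of the ISG15 system and feedback (Isg15, Usp18, Herc6, Adar, Trex1, Trim30a) and 2 genes of galectins (Lgals3bp, Lgals9). All 39 passed the filter on low counts in every comparison.

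Type I interferon is made by macrophages within hours of contact with lipopolysaccharide (LPS), the outer membrane component of Gram-negative bacteria, through the receptor TLR4 and its adaptor TRIF. Interferon then binds IFNAR1 and IFNAR2 on the same and neighbouring cells, and the kinases JAK1 and TYK2 activate transcription factors that bind, with IRF9, the interferon-stimulated response element (ISRE) in promoters. Among the induced genes are sensors that raise the alarm further, effectors that act on viral entry, RNA or assembly, and feedback genes such as Usp18 that end the signal.

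BMDMs of C57BL/6 background came from tlr4f/f mice, whose tlr4 alleles are floxed in all groups, and from tlr4f/f-lysM-cre mice, in which Cre is driven by lysM (Lyz2), a promoter of myeloid cells, and removes the floxed allele. Marrow cells were grown with M-CSF at 50 ng/mL for 7 days. Cells were left without stimulus (LPS-) or received LPS at 1 µg/mL during a further 6 h (LPS+). Each of the 4 groups held 3 libraries. The sources used here do not state the age of the marrow donors, or whether the libraries of a group came from separate mice, so that p-values measure the spread between these libraries, which may be technical.

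Group names follow the column headings of the count matrix, and the heading LPS+ tlr4f/f may have been exchanged with LPS- tlr4f/f-lysM-cre. Tlr4, the targeted gene, was at 76.7, 150 and 119 CPM in LPS- tlr4f/f, 116, 93.2 and 114 in LPS- tlr4f/f-lysM-cre, 31.2, 28.2 and 24.7 in LPS+ tlr4f/f and 27.6, 24.5 and 24.9 in LPS+ tlr4f/f-lysM-cre, where CPM is the count relative to the TMM-scaled total of the library. It was thus low in both groups headed LPS+ and not in LPS- tlr4f/f-lysM-cre. Lyz2, the lysozyme gene whose locus carries Cre, was at 6565, 9710 and 22980 CPM in LPS- tlr4f/f, 5906, 9294 and 7163 in LPS- tlr4f/f-lysM-cre, 10.4, 14.5 and 10.9 in LPS+ tlr4f/f and 75.9, 58.6 and 52.8 in LPS+ tlr4f/f-lysM-cre. Il1b, a cytokine gene that LPS induces in macrophages, was at 6.93, 4.20 and 0.0738 CPM in LPS- tlr4f/f, 8159, 1606 and 2753 in LPS- tlr4f/f-lysM-cre, 2.69, 3.64 and 3.41 in LPS+ tlr4f/f and 2623, 2682 and 2506 in LPS+ tlr4f/f-lysM-cre. It was thus high in both groups headed tlr4f/f-lysM-cre. With the 2 headings exchanged, the low Tlr4 and Lyz2 values would be those of both tlr4f/f-lysM-cre groups, and the high Il1b values those of both LPS+ groups. The exchange leaves the same 4 pairs of columns and changes only what each pair compares, so both readings are given with each comparison, and each group name stands for the libraries so headed.

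The promoters of 4 of the genes are shown because they hold the letters of an ISRE and because sensors, a restriction factor and the ISG15 gene itself are among them. The RefSeq promoter table (GRCm38.p6, 250 bases before to 50 after each start) held 28 of the 39 genes. Usp18, Zbp1, Mx2, Parp9, Parp10, Mx1, Parp14, Dhx58, Ifi204, Rtp4 and Tor3a were missing. The 150 bases before the start are given 5′ to 3′ on the strand of the gene, and capitals mark GAAANNGAA on either strand, the core of an ISRE. The stretches are chr4:156200819-156200968 for Isg15 (minus strand), chr8:71537473-71537622 for Bst2 (minus strand), chr2:62646256-62646405 for Ifih1 (minus strand) and chr8:61927937-61928086 for Ddx60 (plus strand), all of GRCm38.p6.
Isg15: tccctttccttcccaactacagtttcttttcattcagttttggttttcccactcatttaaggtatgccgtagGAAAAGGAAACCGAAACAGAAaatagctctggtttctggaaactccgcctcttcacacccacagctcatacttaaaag
Bst2: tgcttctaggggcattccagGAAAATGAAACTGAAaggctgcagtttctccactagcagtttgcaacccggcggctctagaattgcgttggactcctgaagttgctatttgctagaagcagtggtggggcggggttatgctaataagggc
Ifih1: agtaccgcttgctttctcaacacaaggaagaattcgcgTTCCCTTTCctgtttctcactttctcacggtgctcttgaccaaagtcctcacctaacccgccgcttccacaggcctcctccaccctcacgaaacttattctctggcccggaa
Ddx60: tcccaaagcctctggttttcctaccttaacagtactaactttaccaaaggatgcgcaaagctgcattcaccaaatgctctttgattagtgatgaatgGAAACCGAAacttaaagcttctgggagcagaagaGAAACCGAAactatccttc

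Isg15 held 3 overlapping matches, which began 78, 72 and 66 bases before the start. Bst2 held 2, the farther 130 bases before the start, and this one overlapped a match to TTCNNNGAA, the core of a gamma-activated site (GAS). Ifih1 held 1 match, at 112 bases, written here on the opposite strand, and Ddx60 held 2, the nearer at 19 bases. GAAANNGAA was found on either strand in the 300-base window of 15 of the 28 genes, and in 9.76% of 27025 genes in the table. TTCNNNGAA was found in 7 of the 28 genes and in 9.55% of all genes. A match is a description of these letters and not of binding.

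**Figure D1:**
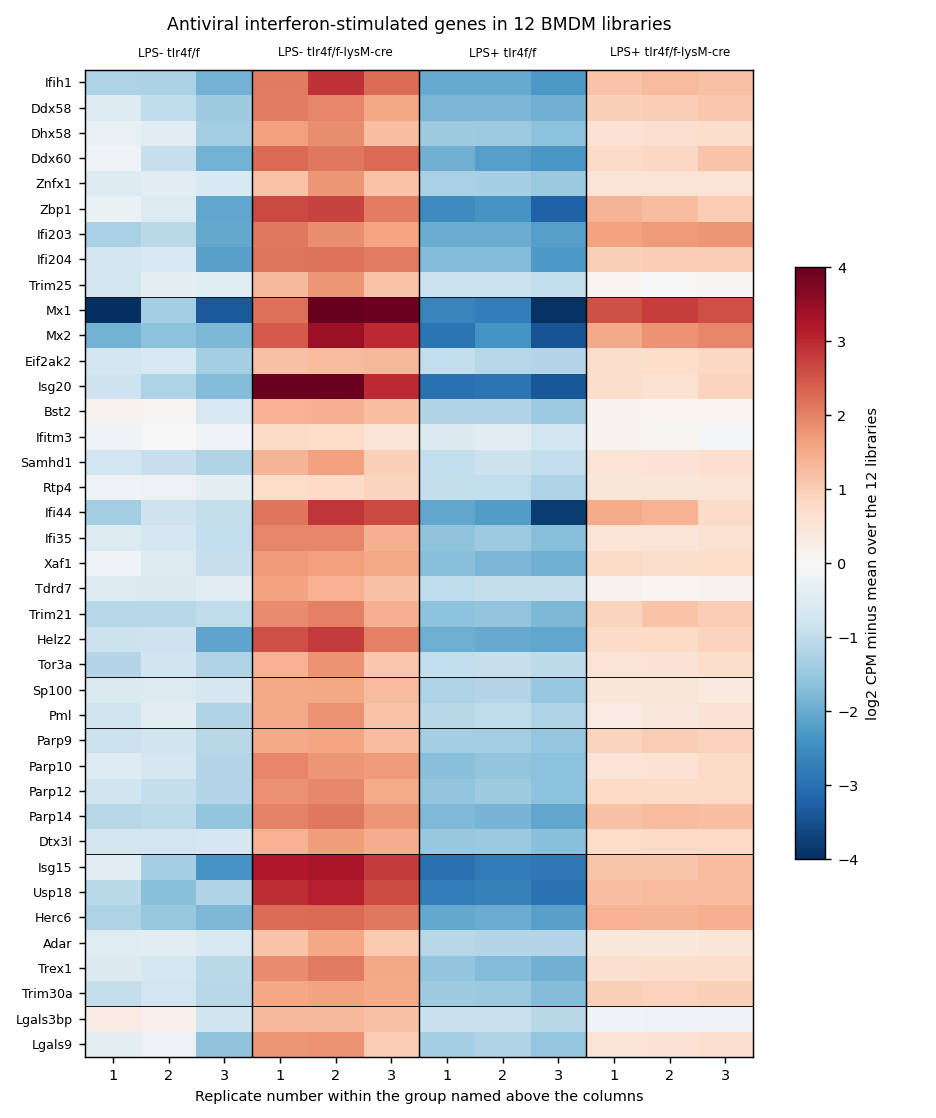
Heat map of the 39 genes (rows, in the order of roles given above, with lines between roles) in the 12 libraries (columns, 3 replicates under each column heading). Colour gives log2 CPM minus the mean of the gene over the 12 libraries and ends at -4 and 4, which of the 39 genes Mx1 alone passes. Most genes are above their mean in both groups headed tlr4f/f-lysM-cre and below it in both groups headed tlr4f/f.

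The 39 genes together took between 0.618% and 0.849% of the counts in LPS- tlr4f/f, 2.38% and 2.71% in LPS- tlr4f/f-lysM-cre, 0.431% and 0.494% in LPS+ tlr4f/f, and 1.53% and 1.58% in LPS+ tlr4f/f-lysM-cre. The ranges of these groups did not overlap. Library size over all genes was between 33577087 and 56445268 counts. By level per length, which is the only scale on which genes are compared here, Ifitm3 led the 39 genes in each group, with means of 1326, 2261, 938 and 1439 CPM per kilobase of transcript in the order of the groups above. Isg15 stood at rank 5 in LPS- tlr4f/f with a mean of 103.6 CPM per kilobase and at rank 2 in LPS- tlr4f/f-lysM-cre with 1996. Mx2 was last in both groups headed tlr4f/f, at 3.23 and 1.503 CPM per kilobase, and Ddx60 was last in both groups headed tlr4f/f-lysM-cre, at 49.0 and 20.2.

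LPS- tlr4f/f-lysM-cre was compared with LPS- tlr4f/f first. As headed, this is the difference between genotypes without LPS, and with the headings exchanged it is the difference LPS makes in tlr4f/f. All 39 genes were higher in LPS- tlr4f/f-lysM-cre, with a median log2 difference of 2.53 and a range from 0.79 for Ifitm3 to 6.27 for Mx1. The median over the 14635 genes tested was -0.08. DEGs, defined by a fold above 2 and a Benjamini-Hochberg adjusted p below 0.01 in the quasi-likelihood test of edgeR, were 37 of the 39, all higher, where 9.25% of all genes tested were higher DEGs. The lowest library of LPS- tlr4f/f-lysM-cre was above the highest of LPS- tlr4f/f in 39 of 39 genes, and in 24.1% of all genes. The other 2 genes, Ifitm3 and Lgals3bp, differed at adjusted p = 0.0177 and 0.0226.

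LPS+ tlr4f/f-lysM-cre was then compared with LPS+ tlr4f/f. As headed, this is the difference between genotypes under LPS, and with the headings exchanged it is the difference LPS makes in tlr4f/f-lysM-cre. Again all 39 genes were higher, by a median log2 difference of 2.36 and from 0.62 for Ifitm3 to 5.68 for Mx1, where the median over 14540 genes tested was -0.02. DEGs were 36 of the 39, where 10.8% of all genes tested were higher DEGs, and the libraries of the groups did not overlap for 39 genes and for 32.7% of all genes. Ifitm3, Lgals3bp and Trim25 passed the adjusted p but not the fold, with log2 differences of 0.62 ± 0.08, 0.74 ± 0.07 and 0.94 ± 0.05 (SE). The 2 comparisons share no library.

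**Figure D2:**
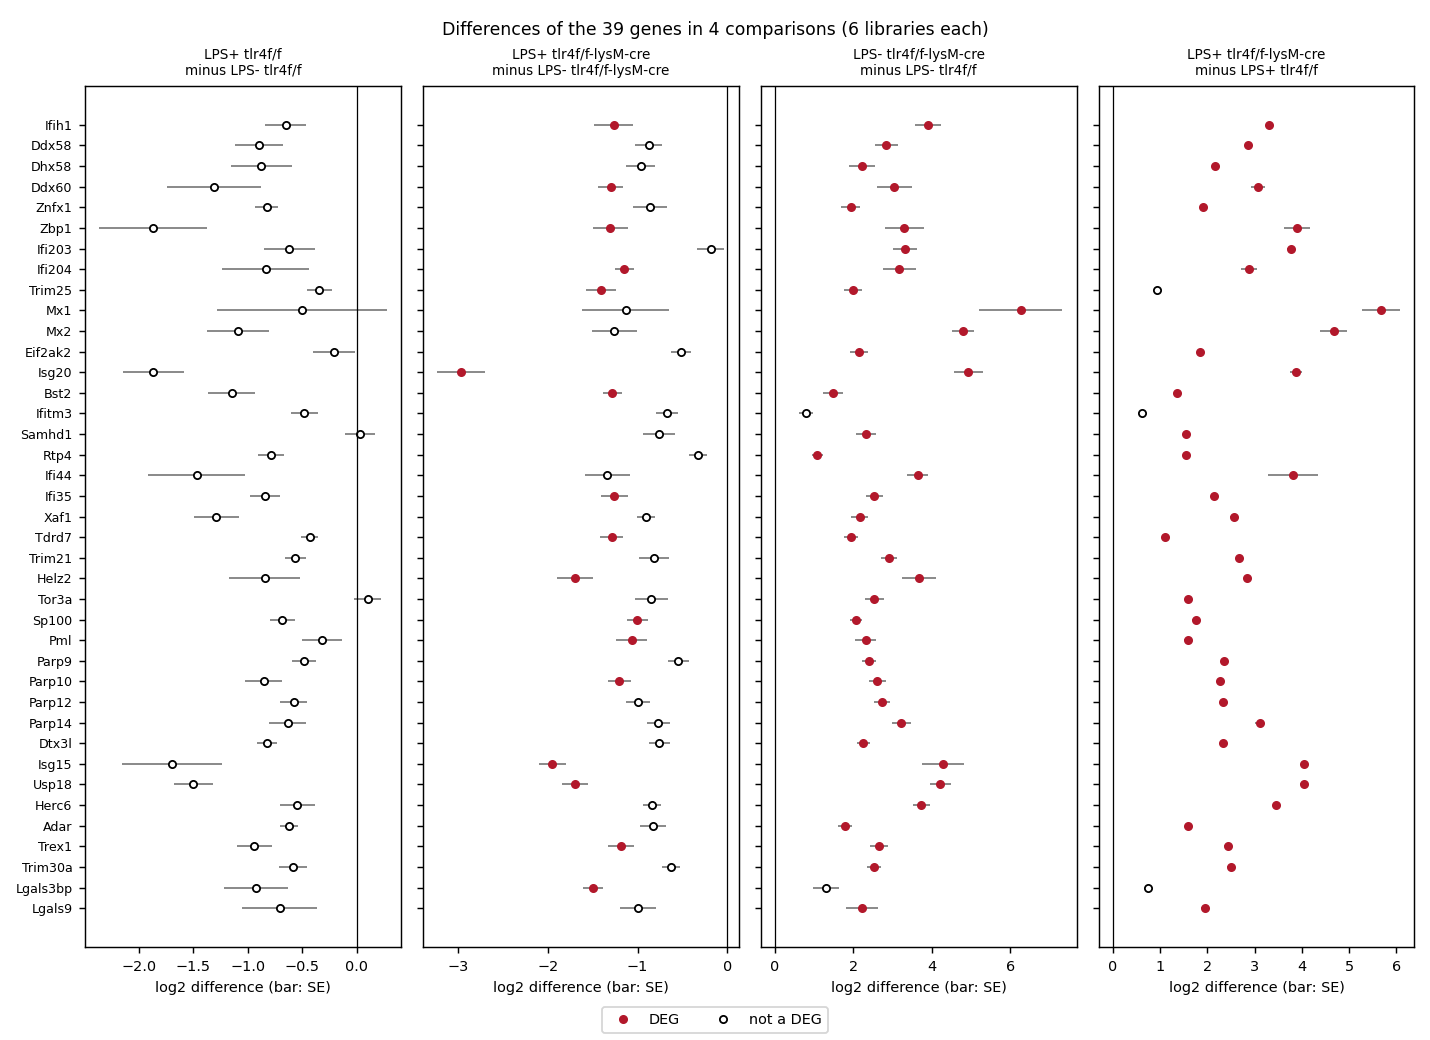
Log2 difference of each of the 39 genes (points, with SE as bars) in 4 comparisons of 3 against 3 libraries, each panel with its own x axis and a line at 0. Filled points are DEGs, 0 in the first panel, 17 lower in the second, 37 higher in the third and 36 higher in the fourth.

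Marker genes of other cells moved with these differences in part. The summed CPM of 8 macrophage markers was 5548 to 7112 in LPS- tlr4f/f, 8792 to 10250 in LPS- tlr4f/f-lysM-cre, 4534 to 4782 in LPS+ tlr4f/f and 6469 to 6654 in LPS+ tlr4f/f-lysM-cre, so that the labelled cell type was present in all groups. The sum of 5 dendritic cell markers was 0.329 to 0.410, 5.83 to 9.38, 0.227 to 0.777 and 4.71 to 5.01 CPM in the same order, and 2 of the 5, Flt3 and Siglech, had at most 2 counts in any library. For 5 stroma markers the sums were 8.58 to 655, 133.9 to 1430, 20.2 to 24.6 and 29.4 to 43.3 CPM, and for 7 neutrophil markers 0.554 to 13.2, 14.4 to 182, 4.56 to 6.70 and 5.43 to 7.63 CPM. Ly6g, which defines neutrophils, had at most 1 count in any library. B and T cell markers summed to at most 1.77 and 0.184 CPM. The part of these cells in the differences was not tested, and in bulk RNA fewer cells of a type and less RNA per cell cannot be told apart.

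The sensors of viral RNA did not overlap between the groups in the 2 comparisons above, as was so for all 39 genes. Over all genes tested, 24.1% and 32.7% were higher without overlap. Ifih1 (MDA5), which senses long viral RNA, was at 99.4, 96.2 and 62.7 CPM in LPS- tlr4f/f, 984, 1735 and 1096 in LPS- tlr4f/f-lysM-cre, 57.2, 57.3 and 47.8 in LPS+ tlr4f/f and 518, 557 and 527 in LPS+ tlr4f/f-lysM-cre. Its fold was 14.96 without and 9.93 under LPS as headed, with log2 differences of 3.90 ± 0.33 (adjusted p = 0.000679) and 3.31 ± 0.08 (adjusted p = 7.27e-12). No library headed tlr4f/f reached a library headed tlr4f/f-lysM-cre, as was so for Ddx58 and Dhx58 too. Ddx58 (RIG-I), the sensor of RNA with a 5′ triphosphate, was at 165, 118 and 89.8 CPM in LPS- tlr4f/f, 997, 927 and 701 in LPS- tlr4f/f-lysM-cre, 67.5, 67.5 and 63.7 in LPS+ tlr4f/f and 463, 475 and 508 in LPS+ tlr4f/f-lysM-cre. Dhx58 (LGP2), a relative that tunes the other RIG-I-like sensors, was at 122, 112 and 57.2 CPM in LPS- tlr4f/f, 462, 539 and 346 in LPS- tlr4f/f-lysM-cre, 55.2, 53.9 and 47.5 in LPS+ tlr4f/f and 224, 234 and 240 in LPS+ tlr4f/f-lysM-cre. The log2 differences without and under LPS as headed were 2.83 and 2.87 for Ddx58, and 2.23 and 2.16 for Dhx58, so that Ifih1 had the largest difference of the 3 RIG-I-like genes in both comparisons. Trim25, the ubiquitin ligase that acts on RIG-I, was at 237, 302 and 282 CPM in LPS- tlr4f/f, 976, 1350 and 878 in LPS- tlr4f/f-lysM-cre, 220, 218 and 201 in LPS+ tlr4f/f and 417, 399 and 406 in LPS+ tlr4f/f-lysM-cre, and its fold was 3.95 without and 1.92 under LPS as headed.

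Zbp1, the sensor of Z-form nucleic acids that can trigger necroptosis, was at 72.0, 58.6 and 20.3 CPM in LPS- tlr4f/f, 544, 567 and 356 in LPS- tlr4f/f-lysM-cre, 15, 16.8 and 9.08 in LPS+ tlr4f/f and 221, 204 and 174 in LPS+ tlr4f/f-lysM-cre. The highest libraries of Zbp1 were those of LPS- tlr4f/f-lysM-cre and the lowest those of LPS+ tlr4f/f. Ifi204, a DNA sensor of the PYHIN family, was at 174, 194 and 66.2 CPM in LPS- tlr4f/f, 1298, 1330 and 1221 in LPS- tlr4f/f-lysM-cre, 89.7, 89.7 and 60.7 in LPS+ tlr4f/f and 577, 585 and 593 in LPS+ tlr4f/f-lysM-cre. Its neighbour in the family, Ifi203, was at 87.8, 102 and 52.5 CPM in LPS- tlr4f/f, 934, 783 and 655 in LPS- tlr4f/f-lysM-cre, 54.5, 54.5 and 47.0 in LPS+ tlr4f/f and 665, 706 and 740.3 in LPS+ tlr4f/f-lysM-cre, and it was the gene least different between the groups headed tlr4f/f-lysM-cre. Reads of Ifi203 and Ifi204 can be shared among the near-identical PYHIN copies on chromosome 1, so that their levels are uncertain. Of the 9 sensor genes, 9 were DEGs without and 8 under LPS as headed, and of all 39 genes 37 and 36 were. Higher DEGs were 9.25% and 10.8% of all genes tested.

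The effectors held the largest and the smallest difference of both comparisons, those of Mx1 and Ifitm3. Mx1, a dynamin-like GTPase that blocks influenza virus in mice with an intact copy, was at 3.27, 26.3 and 6.48 CPM in LPS- tlr4f/f, 309, 1380 and 1018 in LPS- tlr4f/f-lysM-cre, 10.8, 9.79 and 4.28 in LPS+ tlr4f/f and 391, 454 and 402 in LPS+ tlr4f/f-lysM-cre. The deposited table lists the rows of Mx1 and Mx2 as transcribed pseudogenes, and many laboratory strains are known to carry defective copies. The GENCODE annotation lists Mx1 as protein coding and Mx2 as a polymorphic pseudogene. Counts do not show whether a working protein was made in these cells. Mx1 was the least uniform of the 39 genes in both groups without LPS as headed, with an SD on the log2 scale of 1.53 in LPS- tlr4f/f and 1.14 in LPS- tlr4f/f-lysM-cre, and the groups compared did not overlap, at folds of 76.9 (log2 6.27 ± 1.06) and 51.2 (log2 5.68 ± 0.40). Without LPS- tlr4f/f replicate 2, its highest library of that group, the first of these was 185.9 (log2 7.54). Mx2 was at 7.15, 8.61 and 7.70 CPM in LPS- tlr4f/f, 145, 285 and 212 in LPS- tlr4f/f-lysM-cre, 3.51, 5.04 and 2.38 in LPS+ tlr4f/f and 76.1, 92.1 and 103 in LPS+ tlr4f/f-lysM-cre. Reads could be shared between these paralogs, which was not tested, so that the split between them is uncertain.

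Isg20, an exonuclease that degrades viral RNA, was at 11.5, 8.84 and 6.18 CPM in LPS- tlr4f/f, 320, 319 and 165 in LPS- tlr4f/f-lysM-cre, 2.56, 2.70 and 1.94 in LPS+ tlr4f/f and 33.5, 31.8 and 38.4 in LPS+ tlr4f/f-lysM-cre. It had the largest fall between the groups headed tlr4f/f-lysM-cre. Eif2ak2 (PKR), the kinase that halts translation on viral RNA, was at 101, 113 and 67.3 CPM in LPS- tlr4f/f, 384, 409 and 427 in LPS- tlr4f/f-lysM-cre, 86.6, 77.9 and 76.3 in LPS+ tlr4f/f and 279, 283 and 301 in LPS+ tlr4f/f-lysM-cre. Ifi44, an interferon-induced protein of the cytoplasm, was at 18.5, 27.5 and 24.9 CPM in LPS- tlr4f/f, 213, 353 and 303 in LPS- tlr4f/f-lysM-cre, 11.5, 10.3 and 3.46 in LPS+ tlr4f/f and 137, 128 and 82.6 in LPS+ tlr4f/f-lysM-cre. Its level in LPS+ tlr4f/f replicate 3 was below that of the other 2 libraries of the group.

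Bst2 and Ifitm3 were among the genes with the smallest differences. Bst2 (tetherin), which holds budding virus at the cell surface, was at 396, 376 and 232 CPM in LPS- tlr4f/f, 938, 973 and 837 in LPS- tlr4f/f-lysM-cre, 158, 157 and 132 in LPS+ tlr4f/f and 386, 380.2 and 379 in LPS+ tlr4f/f-lysM-cre. Ifitm3, which hinders fusion of virus in endosomes, was at 837, 928 and 814 CPM in LPS- tlr4f/f, 1567, 1522 and 1306 in LPS- tlr4f/f-lysM-cre, 615, 671 and 538 in LPS+ tlr4f/f and 979.6, 946 and 872 in LPS+ tlr4f/f-lysM-cre. Its groups did not overlap in either comparison. Samhd1, which depletes the nucleotides that reverse transcription needs, was at 436, 392 and 323 CPM in LPS- tlr4f/f, 1933, 2321 and 1452 in LPS- tlr4f/f-lysM-cre, 376, 409.9 and 375 in LPS+ tlr4f/f and 1092, 1105 and 1193 in LPS+ tlr4f/f-lysM-cre. Both groups headed tlr4f/f overlapped for Samhd1. Rtp4, a receptor transporter protein induced by interferon, was at 184, 174 and 155 CPM in LPS- tlr4f/f, 341, 352 and 377 in LPS- tlr4f/f-lysM-cre, 105, 104 and 86.0 in LPS+ tlr4f/f and 284, 287 and 293 in LPS+ tlr4f/f-lysM-cre, with folds of 2.12 and 2.94. The other effectors (Ifi35, Xaf1, Tdrd7, Trim21, Helz2, Tor3a) had log2 differences between 1.94 (Tdrd7) and 3.68 (Helz2) without LPS as headed, and between 1.10 (Tdrd7) and 2.85 (Helz2) under LPS as headed.

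**Figure D3:**
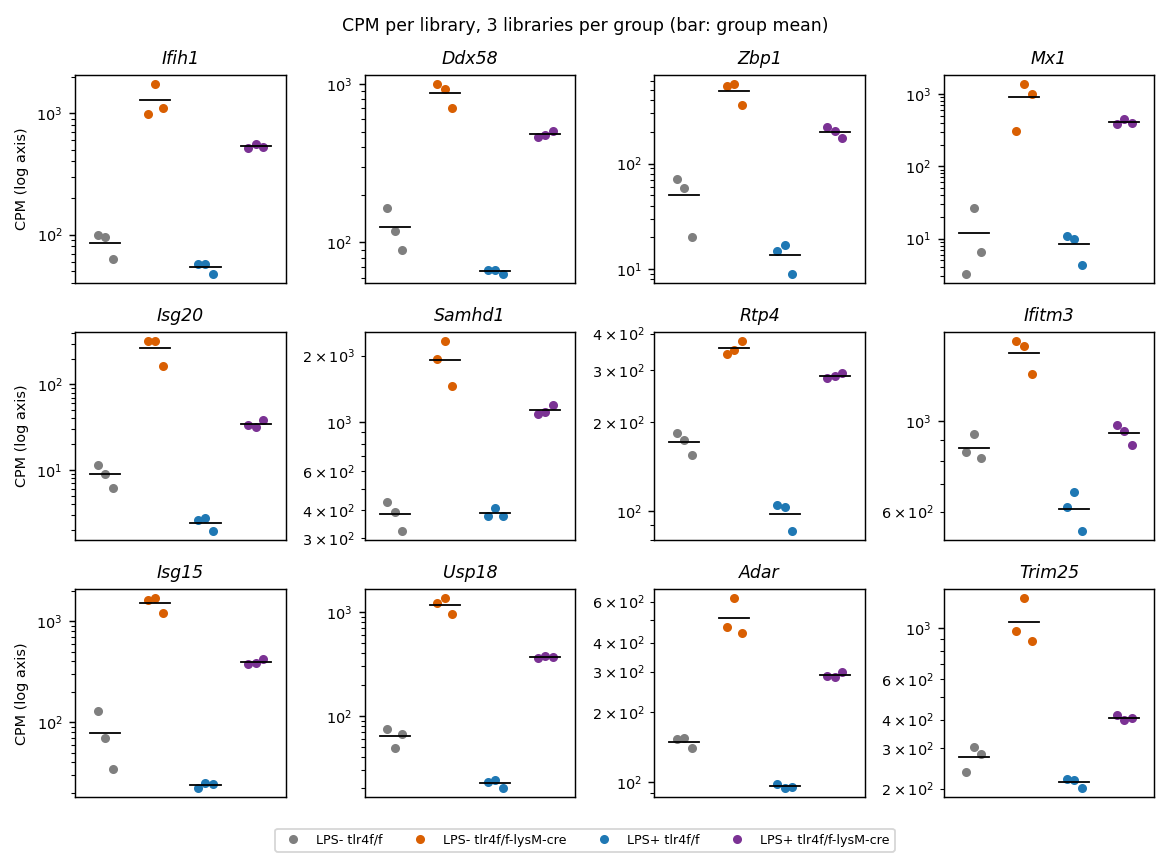
CPM of 12 of the 39 genes in each library (points, log axis), with the mean of each group as a bar. For Isg15 the libraries lie at 34.3 to 130.2 CPM in LPS- tlr4f/f and at 1220 to 1686 in LPS- tlr4f/f-lysM-cre, while for Samhd1 both groups headed tlr4f/f overlap.

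The genes of nuclear bodies, which hold incoming viral genomes silent, differed less than the median of the 39. Pml, the scaffold of these bodies, was at 76.6, 99.3 and 58.2 CPM in LPS- tlr4f/f, 384, 464 and 295 in LPS- tlr4f/f-lysM-cre, 61.9, 66.0 and 57.5 in LPS+ tlr4f/f and 169, 183 and 199 in LPS+ tlr4f/f-lysM-cre. Its log2 differences were 2.31 ± 0.26 and 1.58 ± 0.07, both those of a DEG, and Sp100, a companion in the same bodies, had 2.06 and 1.76. The 5 ADP-ribosylation genes had log2 differences from 2.26 (Dtx3l) to 3.22 (Parp14) without LPS as headed. Parp9 and its partner Dtx3l form a complex that enhances interferon signalling, and Parp9 was at 84.5, 88.2 and 71.1 CPM in LPS- tlr4f/f, 445, 464 and 362 in LPS- tlr4f/f-lysM-cre, 60.6, 59.1 and 52.4 in LPS+ tlr4f/f and 285, 305 and 289.9 in LPS+ tlr4f/f-lysM-cre. Dtx3l was at 116, 113 and 120.2 CPM in LPS- tlr4f/f, 508, 612 and 525 in LPS- tlr4f/f-lysM-cre, 67.1, 67.9 and 60.2 in LPS+ tlr4f/f and 317, 334 and 333 in LPS+ tlr4f/f-lysM-cre. The annotated 5′ ends of Parp9 and Dtx3l, on opposite strands of chromosome 16, lie 681 bases apart with 458 exonic bases in common, and no strand setting of the counting was given in the sources used here, so that reads of this stretch cannot be told apart.

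Parp14, a mono-ADP-ribosyltransferase, was at 320, 347 and 238 CPM in LPS- tlr4f/f, 2804, 3098 and 2410 in LPS- tlr4f/f-lysM-cre, 211, 197 and 167 in LPS+ tlr4f/f and 1592, 1696 and 1638 in LPS+ tlr4f/f-lysM-cre. It had the largest difference of the 5 genes, 3.22 ± 0.25 without and 3.10 ± 0.09 under LPS as headed. Parp10 and Parp12, which transfer single ADP-ribose units as well, had 2.60 and 2.73 without, and 2.28 and 2.34 under LPS as headed. All 5 were DEGs in both comparisons, where 9.25% and 10.8% of all genes tested were higher DEGs.

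Of the ISG15 system and feedback, 6 of 6 genes were DEGs in both comparisons, where 9.25% and 10.8% of all genes were higher DEGs. Isg15, the ubiquitin-like protein that is joined to new viral proteins, was at 130.2, 70.3 and 34.3 CPM in LPS- tlr4f/f, 1621, 1686 and 1220 in LPS- tlr4f/f-lysM-cre, 22.4, 25.1 and 24.3 in LPS+ tlr4f/f and 379.8, 383 and 422 in LPS+ tlr4f/f-lysM-cre. It lies at chromosome 4, 156199424 to 156200818 (GRCm38, minus strand), and its folds were 19.5 (log2 4.28 ± 0.53, adjusted p = 0.00208) and 16.6 (log2 4.05 ± 0.07, adjusted p = 7.76e-13). Without LPS- tlr4f/f replicate 1 the first of these was 29.4 (log2 4.88). Usp18, which removes ISG15 and shuts off the interferon receptor, was at 74.7, 49.1 and 67.4 CPM in LPS- tlr4f/f, 1223, 1350 and 948 in LPS- tlr4f/f-lysM-cre, 23.0, 23.9 and 20.2 in LPS+ tlr4f/f and 359, 373 and 368 in LPS+ tlr4f/f-lysM-cre. Its folds were 18.6 and 16.5. Its groups did not overlap in either comparison, as was so for all 39 genes and for 24.1% and 32.7% of all genes tested. Herc6, the ligase that attaches ISG15 in mice, had log2 differences of 3.73 and 3.46.

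Adar, which edits self RNA so that MDA5 does not sense it, was at 153, 155 and 141 CPM in LPS- tlr4f/f, 467, 619 and 438 in LPS- tlr4f/f-lysM-cre, 98.3, 94.7 and 95.9 in LPS+ tlr4f/f and 286, 284 and 298 in LPS+ tlr4f/f-lysM-cre. Trex1, which degrades DNA in the cytosol, was at 78.1, 72.8 and 55.3 CPM in LPS- tlr4f/f, 439.5, 501 and 342 in LPS- tlr4f/f-lysM-cre, 39.5, 35.5 and 31.2 in LPS+ tlr4f/f and 185, 190.3 and 193 in LPS+ tlr4f/f-lysM-cre. All annotated exon bases of Trex1 lie within exons of Atrip on the same strand, so that its counts are uncertain. Trim30a, a brake on signalling below Toll-like receptors, was at 142, 161 and 125 CPM in LPS- tlr4f/f, 793, 842 and 783 in LPS- tlr4f/f-lysM-cre, 102, 97.0 and 82.0 in LPS+ tlr4f/f and 532, 521 and 533 in LPS+ tlr4f/f-lysM-cre. Adar also shares exon bases with Chrnb2 on the opposite strand. Adar had the smallest differences of the 6, 1.78 and 1.59, and Trim30a had 2.52 and 2.502. Among the galectin genes, Lgals9, a lectin that macrophages secrete, was at 141, 158 and 61.0 CPM in LPS- tlr4f/f, 629, 639 and 377 in LPS- tlr4f/f-lysM-cre, 73.6, 80.1 and 63.5 in LPS+ tlr4f/f and 268, 276 and 286 in LPS+ tlr4f/f-lysM-cre, whereas Lgals3bp, which binds a galectin outside the cell, had log2 differences of 1.29 and 0.74.

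LPS+ tlr4f/f-lysM-cre was next set against LPS- tlr4f/f-lysM-cre. As headed, this is the difference LPS makes in tlr4f/f-lysM-cre, and with the headings exchanged it is the difference between genotypes under LPS. It shares its libraries with the comparisons above. All 39 genes were lower in LPS+ tlr4f/f-lysM-cre, by a median log2 difference of -1.005 and from -2.97 for Isg20 to -0.18 for Ifi203, where the median over 14234 genes tested was 0.03. DEGs were 17 of the 39, all lower, and 3.65% of all genes tested were lower DEGs. At an adjusted p below 0.05 without the fold criterion, 36 genes were lower, where 14.2% of all genes were, and the libraries did not overlap for 37 genes and for 21.4% of all genes. Without any single library of LPS+ tlr4f/f-lysM-cre, 0 of the 39 were DEGs by edgeR, where the share of all genes fell as well, to between 0.027% and 0.101%. Then 19 to 20 of the 39 passed the adjusted p of 0.05, where 7.02% to 7.72% of all genes did in either direction.

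Isg20 fell the most, with a log2 difference of -2.97 ± 0.27 (fold 7.82, adjusted p = 0.00142). Isg15, at -1.95 ± 0.15, Usp18, at -1.70 ± 0.15, and Helz2, a helicase that assists nuclear receptors, at -1.70 ± 0.20, followed. Among the sensors, Ifih1, Ddx60, Zbp1, Ifi204 and Trim25 fell as DEGs, with log2 differences of -1.27, -1.30, -1.31, -1.15 and -1.41. The effectors Bst2, Ifi35 and Tdrd7 had -1.28, -1.26 and -1.29, the nuclear body genes Sp100 and Pml by -1.01 and -1.07, and Parp10, Trex1 and Lgals3bp by -1.20, -1.19 and -1.49. Ifi203, Mx1 and Rtp4 did not pass an adjusted p of 0.05, with -0.18 ± 0.15, -1.13 ± 0.48 and -0.33 ± 0.10. The spread over libraries was small in LPS+ tlr4f/f-lysM-cre, with a median SD of the 39 genes of 0.052 on the log2 scale, and 0.26 in LPS- tlr4f/f-lysM-cre, where over all genes it was 0.13 and 0.37.

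LPS+ tlr4f/f was set against LPS- tlr4f/f as the last pair. As headed, this is the difference LPS makes in tlr4f/f, and with the headings exchanged it is the difference between genotypes without LPS. The median log2 difference of the 39 genes was -0.78, with 37 lower and 2 higher, where the median over 14701 genes tested was -0.03. By edgeR 0 of the 39 were DEGs, and lower DEGs were 0% of all genes tested, while DESeq2 called 8 of the 39, where it called 3.03% of all genes in either direction. At an unadjusted p below 0.05, 32 of the 39 were lower, where 13.1% of all genes were. At an adjusted p below 0.05, 7 genes fell (Isg20, Usp18, Rtp4, Dtx3l, Adar, Znfx1, Xaf1), where 0.673% of all genes were lower. No library of LPS+ tlr4f/f reached one of LPS- tlr4f/f in 30 genes, and in 18.1% of all genes.

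Usp18 fell, with a log2 difference of -1.499 ± 0.18 (adjusted p = 0.0402) and Isg20 had -1.87 ± 0.28 (adjusted p = 0.0487). Dtx3l, Adar and Znfx1, a helicase that senses viral RNA at mitochondria, had -0.82 ± 0.09, -0.62 ± 0.08 and -0.83 ± 0.10. Zbp1 and Isg15 had values as large, -1.87 ± 0.49 and -1.70 ± 0.46, but with adjusted p = 0.0964 and 0.0998. Samhd1 and Tor3a, a torsin ATPase, had 0.03 ± 0.14 and 0.10 ± 0.12.

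This pair depended on single libraries. LPS- tlr4f/f replicate 3 was the lowest of its group in 31 of the 39 genes, where it was the lowest in 40.7% of all 15775 genes. It held 34.3 CPM of Isg15 and 20.3 of Zbp1 against at least 70.3 and 58.6 in the other libraries of the group, but for Usp18 and Dtx3l it was not the lowest. Its Lyz2 was the highest of the group. Without it, 9 of the 39 were DEGs, where 1.21% of all genes were, and 33 passed the adjusted p of 0.05, where 14.2% of all genes did in either direction. Without any single library of LPS+ tlr4f/f, 0 of the 39 passed it, and 0 of all genes did. LPS- tlr4f/f-lysM-cre replicate 3 was likewise the lowest of its group in 31 of the 39 genes (36.2% of all genes), and LPS+ tlr4f/f replicate 3 in 35 (31.3%). In LPS+ tlr4f/f-lysM-cre, replicate 3 was the lowest in 7 of the 39 and replicate 1 in 25 (31.7% of all genes).

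The interaction asks whether the difference between genotypes depended on LPS, and its value is the same under both readings of the headings. It is the difference of LPS+ tlr4f/f-lysM-cre from LPS+ tlr4f/f minus that of LPS- tlr4f/f-lysM-cre from LPS- tlr4f/f, fitted over the 12 libraries. The median of the 39 genes was -0.24, with 31 below and 8 above 0, where the median over 15775 genes was 0.07. Without LPS- tlr4f/f replicate 3 the split was 22 below and 17 above 0, and with 1 library left out the median ranged from -0.33 to -0.14. By edgeR 0 of the 39 were DEGs, where 1.04% of all genes were, and DESeq2 called 2, where it called 4.98%. At an unadjusted p below 0.05 there were 7 of the 39, where 23.5% of all genes passed. At an adjusted p below 0.05, 3 genes were lower and 0 higher, where 2.66% of all genes were lower and 6.99% passed in either direction, so that the share of the 39 was near that of all genes. These were Trim25 (-1.05 ± 0.23, adjusted p = 0.0224), Tdrd7 (-0.84 ± 0.16, adjusted p = 0.0119) and Tor3a (-0.94 ± 0.24, adjusted p = 0.0448), which are described after their values were seen.

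Tdrd7, a protein of RNA granules that restrains autophagy used by viruses, was at 82.1, 79.9 and 88.1 CPM in LPS- tlr4f/f, 364, 314 and 268 in LPS- tlr4f/f-lysM-cre, 59.6, 61.8 and 62.0 in LPS+ tlr4f/f and 133, 126 and 132 in LPS+ tlr4f/f-lysM-cre. Tor3a was at 132, 169.8 and 128 CPM in LPS- tlr4f/f, 779, 1040 and 628 in LPS- tlr4f/f-lysM-cre, 152, 158 and 145 in LPS+ tlr4f/f and 437, 447 and 487 in LPS+ tlr4f/f-lysM-cre. For the 3 genes the difference between the groups headed tlr4f/f-lysM-cre was larger than that between the groups headed tlr4f/f, since Trim25, Tdrd7 and Tor3a had -1.41, -1.29 and -0.85 in the former and -0.34, -0.43 and 0.10 in the latter. Isg20 had the widest interaction value, -1.09 ± 0.39, at adjusted p = 0.119, and Trim30a the one nearest to 0, -0.02 ± 0.17. For Isg15, Usp18, Ifih1 and Zbp1 the values were -0.24 ± 0.50, -0.18 ± 0.25, -0.60 ± 0.32 and 0.57 ± 0.55, with no adjusted p below 0.05. A p above the threshold does not show that the differences were equal.

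**Figure D4:**
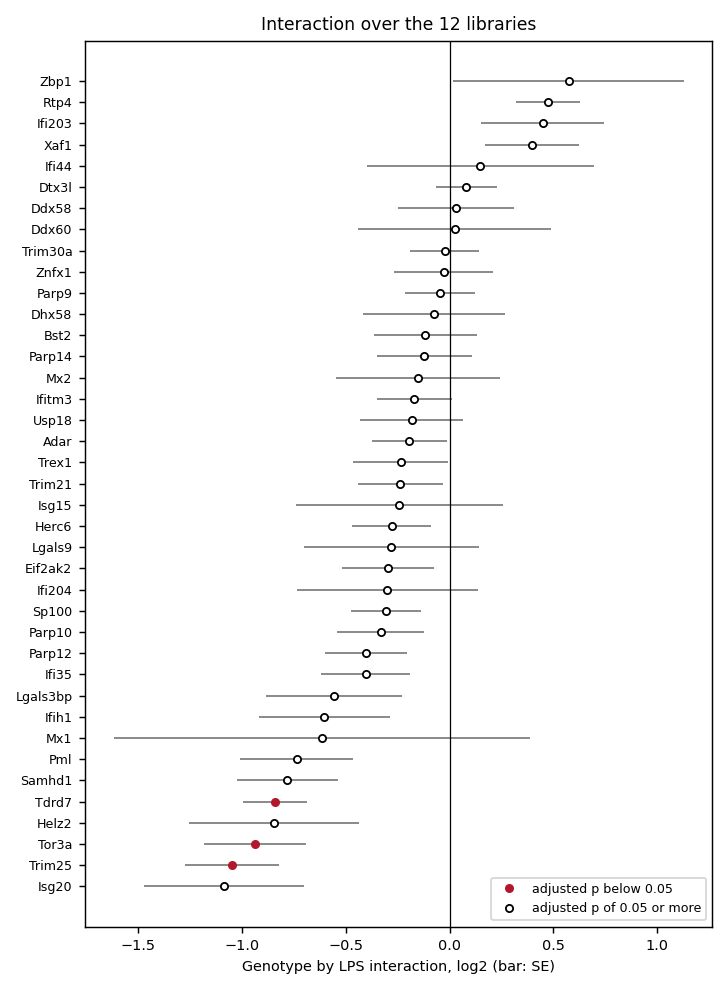
Genotype by LPS interaction of each of the 39 genes on the log2 scale (points, with SE as bars), sorted by value, with a line at 0. The 3 filled points (Trim25, Tdrd7, Tor3a) had an adjusted p below 0.05, and the values run from -1.09 for Isg20 to 0.57 for Zbp1.

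The genes of the pathway that leads to these 39, a list of 21 from Cd14 and the adaptors to the interferon receptor and the ISG15 enzymes, moved in the same direction in part. In LPS- tlr4f/f-lysM-cre against LPS- tlr4f/f, 12 of the 21 were higher DEGs and 1 was a lower DEG, where 9.25% and 7.81% of all genes were. The lower DEG was Mavs, with a log2 difference of -1.05 ± 0.17 (edgeR adjusted p = 0.00473). Under LPS as headed Mavs had -0.06 ± 0.06, and Tmem173, lower without being a DEG, had -0.89 ± 0.07. In LPS+ tlr4f/f-lysM-cre against LPS+ tlr4f/f 14 were higher and 0 lower DEGs, where 10.8% and 10.9% of all genes were. Lower DEGs were 3 of 21 in LPS+ tlr4f/f-lysM-cre against LPS- tlr4f/f-lysM-cre, where 3.65% of all genes were, and 0 of 20 tested in LPS+ tlr4f/f against LPS- tlr4f/f, where 0% of all genes were. Ifnb1, the gene of interferon beta, had 2, 1 and 2 counts in LPS- tlr4f/f, 141, 96 and 150 in LPS- tlr4f/f-lysM-cre, 0 in each library of LPS+ tlr4f/f, and 13, 17 and 23 in LPS+ tlr4f/f-lysM-cre. It was thus seen above a floor of 3 counts only in the groups headed tlr4f/f-lysM-cre, and the counts alone cover counting error only. In LPS+ tlr4f/f-lysM-cre against LPS- tlr4f/f-lysM-cre, Ifnb1 was a lower DEG, with a log2 difference of -3.15 ± 0.35 (edgeR adjusted p = 0.00261).

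Irf7, the interferon regulatory factor that amplifies the response, was at 782, 558 and 103 CPM in LPS- tlr4f/f, 1978, 2089 and 1741 in LPS- tlr4f/f-lysM-cre, 95.7, 92.2 and 54.2 in LPS+ tlr4f/f and 445, 416 and 443 in LPS+ tlr4f/f-lysM-cre. It varied more in LPS- tlr4f/f than in the other groups, again with replicate 3 lowest. Stat2, a transcription factor of the interferon response, was at 196, 235 and 149.5 CPM in LPS- tlr4f/f, 1033, 1311 and 970.2 in LPS- tlr4f/f-lysM-cre, 104, 104 and 87.3 in LPS+ tlr4f/f and 503, 506 and 557 in LPS+ tlr4f/f-lysM-cre. Its partner Irf9 had log2 differences of 0.73 ± 0.14 and 0.68 ± 0.07 in the first 2 comparisons, beside 2.53 and 2.41 for Stat2. Ifnar1, a chain of the interferon receptor, had 1.33 ± 0.32 and 1.41 ± 0.06, and Ube2l6, the conjugating enzyme of ISG15, had 1.44 ± 0.27 and 1.20 ± 0.05.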

How the data were processed

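RNA of BMDMs was sequenced in 12 libraries, 3 for each of 4 groups. According to the methods and the submitters' processing notes, reads were trimmed (Trimmomatic 0.36), aligned (HISAT2, mm10) and assigned to transcripts (HTSeq). The authors deposited raw counts, as whole numbers, for 115140 transcript rows. The labels name both rRNA removal and polyA selection. For each of 43131 genes the transcript row with the highest total was taken, since rows of a gene can share reads. The total over these genes was 33577087 to 56445268 counts a library, and reads carried no molecular identifiers, so counts are not independent molecules.

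Tests used edgeR 4.0.16 in R 4.3.3, with filterByExpr, TMM factors, a robust quasi-likelihood fit and Benjamini-Hochberg adjustment over all genes tested. Each pair of groups was fitted on its 6 libraries, and the interaction on all 12. DEGs had a fold above 2 and an adjusted p below 0.01, after the study's criteria. The SE given with an edgeR value is its absolute log2 value divided by the square root of its F statistic. The prior count of log2 CPM was 2. Other settings were DESeq2 1.42.0, limma 3.58.1 (voom with quality weights), RLE factors, no filter, a minimum of 10 counts per library, a single fit of all libraries, a replicate block, sums over transcript rows, a threshold of 0.05 without a fold, and leaving out 1 library at a time. The fits were also run on simulated counts with known changes and the same dispersion per gene in all groups. In the data the median SD over all genes was 0.33 and 0.37 in the groups headed LPS-, and 0.12 and 0.13 in those headed LPS+. The simulation thus does not show how the tests perform under this unequal spread. Figures were drawn with Python 3.11.15.

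The genes, lists and tests were chosen with earlier results of these data known. By the rule for named genes, all 39 are accounted for by role, with values per library for a fixed list that spans the roles and for the largest and smallest difference of each comparison. Gene positions are from GENCODE on GRCm38, the assembly of mm10.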

Additional observations from a re-analysis of the deposited data

Results flagged for a closer look

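For 3 of the 39 genes the difference between genotypes with LPS, as headed, was unlike that without LPS by a test of the interaction itself, which does not depend on the exchange of headings. At this threshold, an adjusted p below 0.05, 6.99% of all genes tested passed, so that 3 of 39 is near the share of all genes. The interaction was -1.05 ± 0.23 on the log2 scale for Trim25 (edgeR adjusted p = 0.0224), -0.84 ± 0.16 for Tdrd7 (adjusted p = 0.0119) and -0.94 ± 0.24 for Tor3a (adjusted p = 0.0448). The 3 values kept their sign under every alternative run, but without the filter on low counts the adjusted p of Tor3a was 0.0634. With 1 of the 12 libraries left out in turn, the adjusted p of Tdrd7 lay between 0.0032 and 0.0455, that of Trim25 between 0.008 and 0.0689, with 6 of 12 below 0.05, and that of Tor3a between 0.0104 and 0.122, with 3 of 12 below 0.05.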

How the results depend on the processing

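The counts of DEGs in LPS- tlr4f/f-lysM-cre against LPS- tlr4f/f and in LPS+ tlr4f/f-lysM-cre against LPS+ tlr4f/f stayed within 1.5 times of 37 and 36 under each alternative run, at 29 to 36 and 35 to 36 with 1 library left out. The share of all genes called then went from 17.1% to between 6.77% and 11.1% in the former. In the latter it went from 21.7% to between 19.9% and 21.3%. The median difference of the latter was 2.29 to 2.41 with 1 library left out, the lowest without LPS+ tlr4f/f replicate 3.

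For LPS+ tlr4f/f against LPS- tlr4f/f, the 0 DEGs became 7 at an adjusted p below 0.05, 8 with DESeq2, 3 with voom, 1 without the filter and 4 with all 12 libraries in 1 fit, and 0 to 9 with 1 library left out. The share of all genes called moved too, from 0% to 3.03%, 0.367%, 0.135% and 0.469% with DESeq2, voom, no filter and 1 fit, and to between 0% and 1.21% with 1 library left out. The 17 DEGs of LPS+ tlr4f/f-lysM-cre against LPS- tlr4f/f-lysM-cre became 36 at an adjusted p below 0.05 and 0 to 21 with 1 library left out. The share of all genes called went from 6.08% to 26.7%, and to between 0.027% and 8.08%, in the same settings. The interaction had 0 DEGs, which became 3 at an adjusted p below 0.05, 2 with DESeq2, 1 with voom and 0 to 1 with 1 library left out. Over all genes its share went from 1.04% to 6.99%, 4.98%, 1.13% and between 0.061% and 1.88% in the same order. Where a library was left out, fewer libraries entered the fit. The cause of the other changes was not tested.

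With the replicate number as a block, DEGs of LPS+ tlr4f/f-lysM-cre against LPS- tlr4f/f-lysM-cre were 4, where 1.49% of all genes were called. LPS- tlr4f/f-lysM-cre against LPS- tlr4f/f had 37 (15% of all genes), and LPS+ tlr4f/f-lysM-cre against LPS+ tlr4f/f had 36 (22.3%). LPS+ tlr4f/f against LPS- tlr4f/f and the interaction had 0 each, where 0% and 0.818% of all genes were called. Deviations of same-numbered libraries from their group means correlated at r = -0.0379 to 0.472 over 18 pairs, 5 of them above 0.1. Over 36 pairs with different numbers r was -0.492 to 0.203, with 3 above 0.1. Between both groups headed LPS-, r was 0.472 for replicate 1, 0.342 for replicate 2 and 0.0159 for replicate 3. The main tests did not use the replicate number. Whether same-numbered libraries shared a mouse or a batch was not tested.

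Signs turned for 4 values among those named. In LPS+ tlr4f/f against LPS- tlr4f/f, Samhd1 was -0.029 with voom, and with 1 library left out it ranged from -0.079 (without LPS- tlr4f/f replicate 3) to 0.147, where Mx1 ranged from -0.95 to 0.77 (without LPS- tlr4f/f replicate 2). The interaction of Trim30a was 0.027 with voom and ranged from -0.121 to 0.057 with 1 library left out, and that of Isg15 from -0.829 to 0.116, the highest of both without LPS- tlr4f/f replicate 3.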
